A study of Mus musculus with 3 samples.

Results

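The 10 genes described here, Havcr1, Lcn2, Clu, Krt8, Krt18, Krt19, Krt20, Sox9, Cryab and Hspb1, are markers of tubule injury and dedifferentiation, taken by symbol from the 27998 genes of the files, and all 10 were found there. The rule that picks them uses the symbols only, and no measured value. Kidney cells of 2 Aoah-/- mice (mouse 2 and mouse 3) and 1 WT mouse (mouse 3), all 6 to 8 weeks old, were profiled by droplet single-cell RNA sequencing (scRNA-seq) on day 14 after folic acid (FA), with 1 library per mouse. Every mouse received FA, a tubular toxin, so that no untreated kidney stands beside the values. The Aoah-/- allele was on a C57/BL6J background and present in every cell type, and the WT controls were littermates according to the study's methods. Aoah encodes acyloxyacyl hydrolase, an enzyme that removes acyl chains from bacterial lipopolysaccharide. The question addressed is in which tubule cells the 10 genes were detected after FA, and at what level with and without Aoah. With 1 WT library the spread between WT mice is unknown, and no test between genotypes was made, so values are given per mouse.

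Mature tubule cells that are damaged lose transporters and enzymes and take up a less differentiated program, in which they make simple epithelial keratins, secreted protective proteins and transcription factors of kidney development. HAVCR1 (kidney injury molecule 1) is a receptor for phosphatidylserine through which injured proximal tubule cells engulf dead cells, and NGAL, the product of Lcn2, is an iron-siderophore binding protein secreted mainly by the distal nephron. Clusterin (Clu) is a secreted chaperone, keratins 8, 18, 19 and 20 form the intermediate filaments of simple epithelia, SOX9 marks tubule cells that repair and divide, and alpha B-crystallin (Cryab) and Hspb1 are small heat shock proteins that hold unfolded proteins and protect filaments.

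The libraries held 158551992 to 167222984 unique molecular identifiers (UMIs, counted molecules) in 23072 to 25516 barcodes, and 59262 cells were kept. Of these, 91.6% fell into clusters that could be named from marker genes, and the 10 members and Aoah were used neither for clustering nor for naming. A class is called "-like" because its name rests on those markers. The nephron classes were proximal tubule (PT), injured tubule, thick ascending limb (TAL) with injury genes (TAL/injured tubule), TAL, connecting and distal convoluted tubule (CNT/DCT), principal cells (PC), and intercalated cells (IC) of types A and B. Aoah stood at 6.06, 5.68 and 15.3 counts per 1000000 UMIs (CPM). Sets of 3 values give mouse 2 and mouse 3 of the Aoah-/- genotype first and the WT mouse last. These Aoah counts come from the 3′ end of the transcript, which need not lie in the deleted part. Pairs of libraries shared 171 to 176 barcodes, at most 0.763% of the smaller library. Several unnamed clusters came mostly from 1 mouse, among them 1411 of 1515 cells led by Saa3, Slpi and Prg4 from Aoah-/- mouse 2 and 880 of 954 cells led by neutrophil and macrophage genes from Aoah-/- mouse 3, and they enter no nephron class.

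The PT-like class held 8040, 4781 and 9335 cells, and its cells had a median of 3095.5, 6325 and 4866 UMIs. The injured tubule-like class held 169, 330 and 104 cells and was led by Vcam1, Ccl2, C3 and Cp. Its PT genes were present at a reduced level: the phosphate transporter gene Slc34a1 stood at 871, 839 and 914 CPM against 3531, 3993 and 3631 CPM in PT-like cells. The TAL/injured tubule-like class held 607, 791 and 372 cells and had Wfdc2, Umod, Mal and Spp1 among its leading genes. Its uromodulin transcript Umod stood at 4757, 4505 and 4095 CPM against 12920, 10414 and 10689 CPM in TAL-like cells. Other TAL genes differed in how far they were kept. Egf stood at 44.5, 39.3 and 40.0 CPM against 3839, 3165 and 3629 CPM, and Cldn19 at 155, 168 and 107 CPM against 175, 141 and 220 CPM. The injured tubule-like class was 0.791%, 1.68% and 0.571% of all kept cells and the TAL/injured tubule-like class 2.84%, 4.02% and 2.04%, so both shares were higher in each Aoah-/- mouse than in the WT mouse. The share of PT-like cells was 37.6%, 24.3% and 51.3%. A share of cells also depends on how each kidney was dissociated and on how its cells were called, which cannot be told apart from genotype here.

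Among the surface and secreted markers, Havcr1 (ENSMUSG00000040405, chr11:46735080-46779578, plus strand, GRCm38) was concentrated in the injured tubule-like class, at 150.1, 143 and 181 CPM. This small class held 57.7, 61.6 and 54.1% of all Havcr1 UMIs of its library. TAL/injured tubule-like cells followed among nephron classes at 3.31, 10.3 and 17.9 CPM. PT-like cells stood at 1.80, 1.49 and 0.846 CPM and did not overlap them. Of the remaining nephron classes only TAL-like cells of the WT mouse (2.06 CPM from 6 UMIs) and IC type B-like cells of Aoah-/- mouse 3 (1.76 CPM from 7 UMIs) were above PT-like cells of their library. After each cell was thinned to 1000 UMIs, 8.98, 6.06 and 8.65% of injured tubule-like cells had a Havcr1 UMI, against 0.163, 0.105 and 0.0397% of PT-like cells. Havcr1 was also uneven inside the injured class, where the 5 cells richest in it held 39.4%, 42.4% and 67.5% of its UMIs. In CNT/DCT-like, PC-like and both IC-like classes of the WT mouse 0 Havcr1 UMIs were counted, which allows levels of up to 0.771 to 1.57 CPM.

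Lcn2 (ENSMUSG00000026822, chr2:32384633-32388252, minus strand) had another place than Havcr1. The TAL/injured tubule-like class held 71.9, 77.4 and 80.3% of all Lcn2 UMIs, at 1993, 2572 and 1498 CPM, and 55.4, 53.9 and 45.9% of its cells had an Lcn2 UMI at equal depth. The order of the other nephron classes differed between libraries. IC type A-like cells stood at 544, 129.6 and 25.3 CPM, with 770 of the 1322 UMIs of Aoah-/- mouse 2 from 1 cell. TAL-like cells stood at 89.01, 144 and 56.8 CPM, PC-like cells at 86.9, 72.8 and 62.4 CPM and IC type B-like cells at 51.2, 146 and 16.8 CPM. Injured tubule-like cells stood at 68.2, 37.4 and 123 CPM, next to the leading class in the WT mouse only, and 2.40, 3.33 and 2.88% of them had an Lcn2 UMI. PT-like cells stood at 3.37, 5.98 and 1.24 CPM, below T and B lymphocyte-like cells at 4.55, 9.38 and 2.12 CPM in all 3 libraries. The PT-like level was thus not above that of lymphocyte-like cells, which are taken here as background. The source of the counts in lymphocyte-like cells was not tested.

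Clu (ENSMUSG00000022037, chr14:65968483-65981547, plus strand) was also highest in TAL/injured tubule-like cells, at 3642, 4332 and 6555 CPM, with 52.2, 52.5 and 63.1% of all its UMIs. Unlike Lcn2 it was present all along the distal nephron, at 1772, 1724 and 2035 CPM in PC-like cells, 1446, 1013 and 1200.3 CPM in IC type A-like cells and 1012, 1303 and 1055 CPM in CNT/DCT-like cells. The last of these sets overlapped the set of IC type A-like cells. Injured tubule-like cells stood at 406, 456 and 346 CPM and PT-like cells at 13.3, 18.1 and 11.96 CPM. The latter was again below the level of lymphocyte-like cells, 21.6, 26.7 and 19.1 CPM.

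Krt8 and Krt18 encode the type II and type I keratin that pair into one filament, and the genes are neighbours. Krt8 (ENSMUSG00000049382, chr15:101996698-102004482, minus strand) and Krt18 (ENSMUSG00000023043, chr15:102028180-102032027, plus strand) lie 23697 bases apart and run away from each other. A processed pseudogene, Krt8-ps, may share reads with Krt8. The RefSeq promoter table of GRCm38.p6 had an entry for 6 of the 10 members (Havcr1, Lcn2, Krt8, Krt18, Krt20 and Hspb1), and the 150 bases before the RefSeq start of both keratin genes are shown because this neighbouring pair had the most alike levels across classes of all member pairs. Both RefSeq starts lie inside the gene span given above, which begins at the outermost annotated start, so the windows overlap the genes.
Krt8 chr15:102004343-102004492, minus strand: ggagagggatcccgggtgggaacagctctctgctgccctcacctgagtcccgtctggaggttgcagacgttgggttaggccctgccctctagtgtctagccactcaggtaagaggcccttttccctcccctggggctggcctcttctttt
Krt18 chr15:102028066-102028215, plus strand: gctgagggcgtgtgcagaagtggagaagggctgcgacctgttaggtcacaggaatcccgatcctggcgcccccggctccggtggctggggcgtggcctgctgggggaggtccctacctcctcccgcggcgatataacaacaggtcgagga
The heat shock element (GAANNTTC), the GC box (GGGCGG), the TATA box (TATAAA) and the AP-1 site (TGANTCA) were searched on both strands in the 250 bases before each start. They were held by 6.69%, 32.7%, 12.4% and 6.75% of all 32851 promoters of the table. None of these letters occurred in the windows of Krt8 and Krt18.

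Krt8 stood at 1492, 1519 and 1674 CPM in TAL/injured tubule-like cells and at 782, 813 and 893 CPM in injured tubule-like cells. IC type A-like cells followed at 532, 439.8 and 411 CPM and IC type B-like cells at 423, 356 and 411 CPM, which overlapped. TAL-like cells stood at 168, 182 and 122 CPM and PT-like cells at 109.6, 106 and 95.3 CPM, so Krt8 was lower in the uninjured class than in the corresponding injured class in every library. Krt18 was at 747, 699 and 881 CPM in TAL/injured tubule-like cells and between 263 and 364 CPM in the libraries of the PC-like and both IC-like classes. In injured tubule-like cells it stood at 86.7, 115 and 95.4 CPM and in PT-like cells at 4.54, 4.43 and 3.25 CPM. Of the PT-like cells, 8.15, 9.04 and 7.53% had a Krt8 UMI at equal depth and 0.473, 0.418 and 0.291% a Krt18 UMI. The same shares of lymphocyte-like cells were 2.003, 1.87 and 1.17% for Krt8 and 0.668, 0.5995 and 0.533% for Krt18, so that Krt8 alone of the pair was above this background in PT-like cells.

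Keratin 19 was mainly found outside the nephron, and keratin 20 in both urothelial-like and injured tubule-like cells. Krt19 (ENSMUSG00000020911, chr11:100140810-100148665, minus strand), a type I keratin of ducts and urothelium, stood at 2141, 1739 and 2668 CPM in urothelial-like cells, which held 88.7, 62.1 and 66.5% of its UMIs. Among nephron classes it was highest in TAL/injured tubule-like cells at 214, 288 and 217 CPM, against 10.04, 3.99 and 4.40 CPM in injured tubule-like cells. Krt20 (ENSMUSG00000035775, chr11:99428403-99438150, minus strand), a keratin of superficial urothelium and gut epithelium, was scarce in every class. Urothelial-like cells held 72.2, 47.9 and 59.4% of its UMIs, at 35.97, 49.4 and 55.8 CPM. Injured tubule-like cells held 18.8, 40.6 and 15.1%, at an overlapping 41.7, 35.6 and 24.2 CPM. TAL/injured tubule-like cells had 18, 3 and 0 Krt20 UMIs and PT-like cells 11, 11 and 12, so that among the 4 keratins Krt20 was the one higher in the injured tubule-like than in the TAL/injured tubule-like class in every library.

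Sox9 (ENSMUSG00000000567, chr11:112782224-112787760, plus strand), a transcription factor of kidney development and tubule repair, was highest in injured tubule-like cells at 369, 317 and 344 CPM. TAL/injured tubule-like cells followed at 224, 194 and 189 CPM, CNT/DCT-like cells at 103, 83.7 and 57.6 CPM, IC type A-like cells at 67.9, 59.4 and 24.5 CPM and TAL-like cells at 38.02, 34.5 and 19.3 CPM. Within each library this order held without exception. PC-like cells stood at 13.7, 6.83 and 3.49 CPM and PT-like cells at 4.79, 4.70 and 1.12 CPM. The TAL/injured tubule-like class, being larger, held 39.2, 35.3 and 42.9% of all Sox9 UMIs.

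Cryab (ENSMUSG00000032060, chr9:50751325-50756636, plus strand) was highest in injured tubule-like cells at 658, 591 and 862 CPM and next in TAL/injured tubule-like cells at 500, 499 and 277 CPM, followed by IC type A-like cells at 190.1, 304 and 292 CPM, which overlapped it, and PC-like cells at 175, 185 and 232 CPM. The 5′ part of Cryab is overlapped on the opposite strand by Hspb2, and whether the counting used strand is not given in the sources used here, so a part of the UMIs may be shared between both genes. Hspb1 (ENSMUSG00000004951, chr5:135887919-135889563, plus strand) had the same leading pair of nephron classes, with 1118, 1005 and 1135 CPM in injured tubule-like and 487, 667 and 638 CPM in TAL/injured tubule-like cells. PT-like cells stood at 14.7, 17.3 and 23.6 CPM for Cryab and 6.91, 9.70 and 6.53 CPM for Hspb1. Hspb1 was not restricted to tubules, since endothelial-like cells reached 1110.2, 1708 and 1476 CPM.

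The promoter of Hspb1 is shown because it held the heat shock element 2 times, and that of Krt20 because it was the other keratin promoter in the table. Capitals mark matches to the motifs named above.
Hspb1 chr5:135887769-135887918, plus strand: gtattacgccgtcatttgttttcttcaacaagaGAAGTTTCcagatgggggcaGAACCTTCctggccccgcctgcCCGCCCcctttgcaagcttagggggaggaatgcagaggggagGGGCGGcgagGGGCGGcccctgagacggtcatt
Krt20 chr11:99438154-99438303, minus strand: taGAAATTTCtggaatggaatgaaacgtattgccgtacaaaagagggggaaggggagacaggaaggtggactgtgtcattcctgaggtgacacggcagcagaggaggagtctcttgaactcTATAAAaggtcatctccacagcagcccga
In Hspb1 the heat shock element matched at 117 to 110 and 97 to 90 bases before the start (GAAGTTTC and GAACCTTC), and the GC box at 4 places of the 250 bases. In Krt20 the heat shock element matched at 148 to 141 bases before the start (GAAATTTC) and the TATA box at 29 to 24. A match describes letters in the window and not a bound site.

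**Figure D1:**
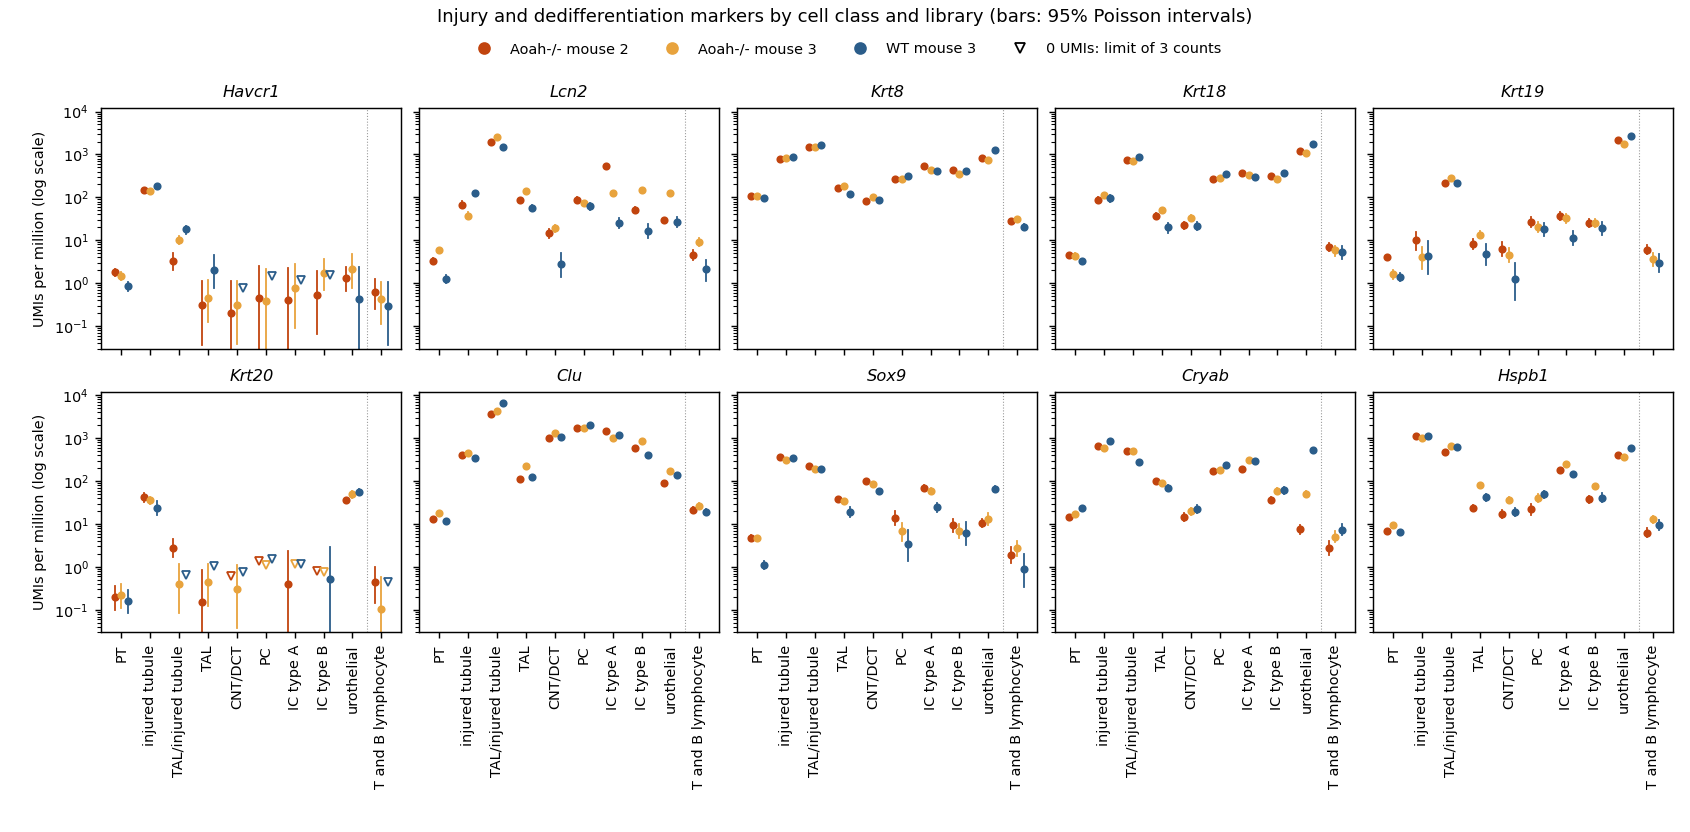
Level of each of the 10 members (CPM, log axis) by cell class, with 1 point per library and exact Poisson 95% intervals for counting error. Open triangles mark classes with 0 UMIs, drawn at the limit that 3 counts give. Havcr1 and Sox9 peak in injured tubule-like cells, Lcn2 and Clu in TAL/injured tubule-like cells and Krt19 in urothelial-like cells, while PT-like cells lie near T and B lymphocyte-like cells for most members.

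In PT-like cells, the class with most cells, the 10 members together stood at 163, 169.6 and 145 CPM, a log2 ratio of 0.20 between the mean of both Aoah-/- libraries and the WT library. Krt8 gave most of this sum. Both Aoah-/- libraries were above the WT library for 9 members and below it for Cryab, and 4 of the 10 were also past 1.5-fold, the size taken here as a call: Havcr1, Lcn2, Krt19 and Sox9, all above. Of 14295 genes with at least 4 UMIs in each library, 18.3% were past 1.5-fold with both Aoah-/- libraries on one side of the WT library, 13.9% above and 4.39% below. A share for differences of any size was not formed for these genes. Only Krt8 and Cryab reached 20 CPM in a group, where 2.6% of 5123 genes were called above the WT library, and neither member was past the fold. At that level 32.4% of genes were above and 52.9% below the WT library in both Aoah-/- libraries. The count among 10 named genes is a description of them.

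Sox9 had the largest ratio of the members in PT-like cells. It stood at 4.79, 4.70 and 1.12 CPM, with 95% counting intervals of 4.23 to 5.41, 4.11 to 5.35 and 0.890 to 1.39 CPM. Both Aoah-/- libraries were close to each other and apart from the WT library, and the ratio was 4.24-fold, 2.08 on the log2 scale with an SD of 0.02 between the 2 Aoah-/- libraries. These levels rest on 263, 227 and 82 UMIs. Lymphocyte-like cells stood at 1.92, 2.74 and 0.908 CPM, with a log2 ratio of 1.36 in the same direction, and their counting intervals reached 1.21 to 2.91, 1.79 to 4.01 and 0.333 to 1.98 CPM. PT-like cells were thus above this background in both Aoah-/- libraries and overlapped it in the WT library. The shares of PT-like cells with a Sox9 UMI at equal depth were 0.456, 0.397 and 0.0927%, against 0.223, 0.112 and 0.0533% of lymphocyte-like cells, and the intervals of the 2 classes overlapped in each library. Without the 5 cells richest in Sox9 of each library the log2 ratio was 2.58.

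Havcr1 stood at 1.80, 1.49 and 0.846 CPM in PT-like cells, from 99, 72 and 62 UMIs, with counting intervals of 1.47 to 2.20, 1.17 to 1.88 and 0.648 to 1.08 CPM. Both Aoah-/- intervals lay above that of the WT library, and the log2 ratio was 0.96 (SD 0.20 between the Aoah-/- libraries). The difference was not alike in the PT segments described below. Lymphocyte-like cells had 0.612, 0.422 and 0.303 CPM. In Aoah-/- mouse 2, 5 cells held 50.5% of the Havcr1 UMIs and 1 cell held 30 of the 99. Without the 5 richest cells of each library the levels were 0.893, 1.06 and 0.587 CPM and the log2 ratio 0.73. At equal depth 0.163, 0.105 and 0.0397% of PT-like cells had a Havcr1 UMI, and 0.0636, 0.0375 and 0% of lymphocyte-like cells, where 0 of 1876 WT cells, read as at most 3 counts, allow a share of up to 0.160%.

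Lcn2 and Krt19 were above the WT level in PT-like cells, but below the lymphocyte-like background in each library. Lcn2 stood at 3.37, 5.98 and 1.24 CPM, a log2 ratio of 1.91 (SD 0.58), while in lymphocyte-like cells the ratio was 1.72. An Lcn2 UMI was found in 0.407, 0.941 and 0.199% of PT-like and 0.445, 0.899 and 0.426% of lymphocyte-like cells. Krt19 stood at 4.03, 1.61 and 1.40 CPM in PT-like cells, a log2 ratio of 1.01 that rested on Aoah-/- mouse 2 and was 0.20 without it. Lymphocyte-like cells had 6.03, 3.58 and 3.03 CPM of Krt19. The summed level of 7 immune genes (Ptprc, Lyz2, C1qa, C1qb, Cd74, S100a8 and S100a9) in PT-like cells was 238, 248 and 129 CPM, with only Lyz2 and Cd74 at 20 CPM or more, and its part in these differences was not tested. Cd74 gave most of this sum, at 131, 164 and 89.9 CPM. The study reports CD74 in proximal tubule cells as well, so the sum is not specific to immune cells.

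Krt8 was the member with most UMIs in PT-like cells (6017, 5122 and 6985). It stood at 109.6, 106 and 95.3 CPM, with counting intervals of 107 to 112, 103 to 109 and 93.1 to 97.5 CPM, and the log2 ratio was 0.18 (SD 0.03). The difference exceeded the gap between the Aoah-/- libraries, but at 1.13-fold it was small, and a spread between WT mice cannot be given. At equal depth 8.15, 9.04 and 7.53% of PT-like cells had a Krt8 UMI, and the interval of the WT library (6.95 to 8.15%) overlapped that of Aoah-/- mouse 2 (7.48 to 8.86%). Lymphocyte-like cells had 28.6, 30.98 and 20.6 CPM of Krt8, also higher in both Aoah-/- libraries.

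Cryab was the only member below the WT level in PT-like cells in both Aoah-/- libraries, at 14.7, 17.3 and 23.6 CPM and a log2 ratio of -0.56 (SD 0.16). Its counting intervals of 13.7 to 15.8, 16.1 to 18.5 and 22.5 to 24.7 CPM did not overlap. The share of PT-like cells with a Cryab UMI, 1.14, 1.59 and 1.54%, was above that of lymphocyte-like cells (0.254, 0.225 and 0.213%) in each library but did not have the order of the levels. The difference rested on 91 cells of a subcluster led by Cyp7b1, without which Cryab stood at 12.95, 14.7 and 14.0 CPM, a log2 ratio of -0.02. Krt18, Clu and Hspb1 had log2 ratios of 0.47, 0.39 and 0.35, at levels near or below those of lymphocyte-like cells. Krt20 had no more than 12 UMIs per library in PT-like cells.

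**Figure D2:**
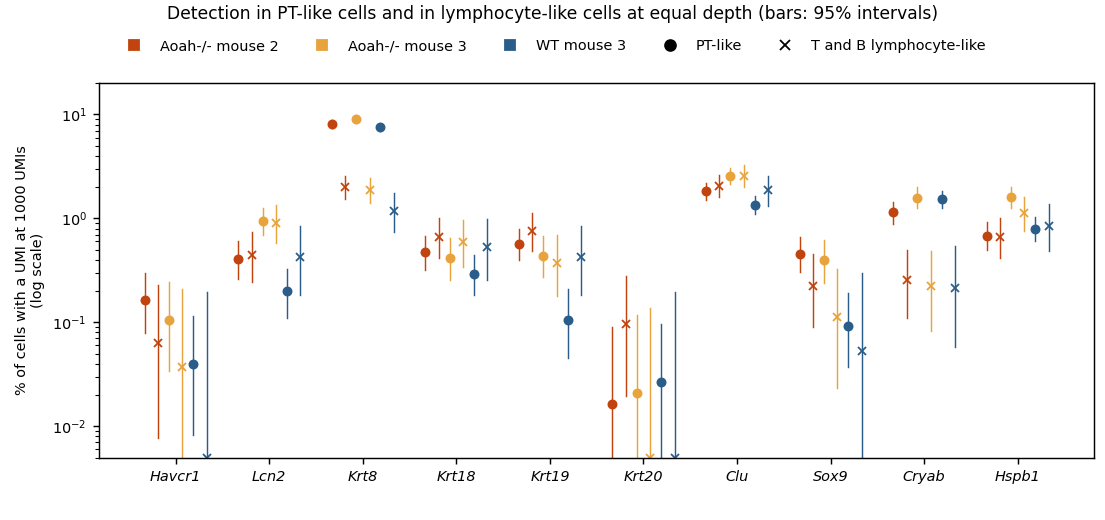
Percent of cells with at least 1 UMI of each member after thinning to 1000 UMIs per cell (log axis), in PT-like cells (circles) and T and B lymphocyte-like cells (crosses) of each library, with exact Clopper-Pearson 95% intervals. Shares of 0 are drawn at the lower edge. Krt8, at 7.53 to 9.04% of PT-like cells, and Cryab, at 1.14 to 1.59%, lie above the lymphocyte-like shares in all 3 libraries. Sox9 and Havcr1 also lie above them in all 3 libraries, but with intervals that overlap those of lymphocyte-like cells. Most of the remaining members do not lie above them.

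The shares used 6136, 4781 and 7554 PT-like cells, after 1904, 0 and 1781 cells with fewer than 1000 UMIs were left out, and 3145, 2669 and 1876 lymphocyte-like cells, whose median was 2572, 2888 and 2612 UMIs. Without thinning, 30.8, 41.2 and 32.3% of PT-like cells had a Krt8 UMI, 1.54, 2.32 and 0.428% a Sox9 UMI and 0.647, 1.13 and 0.514% a Havcr1 UMI. In 7 of the 10 members both thinned Aoah-/- shares were above the WT share, and the same count over all genes was not made. Intervals and limits cover counting error only.

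PT-like cells could be divided in part into segments S1/S2 and S3, the latter being the straight part of the proximal tubule. In S1/S2-like cells (2574, 2075 and 2791 cells) Krt8 stood at 132, 129 and 107 CPM, a log2 ratio of 0.28, and Sox9 at 5.27, 5.84 and 1.70 CPM, a log2 ratio of 1.71. Havcr1 stood at 0.861, 1.40 and 0.852 CPM in S1/S2-like cells, so Aoah-/- mouse 2 was at the WT level. Of the 99 Havcr1 UMIs in PT-like cells of that mouse, 57 came from S3-like cells. The Krt8 difference was largest in a subcluster led by the immediate early genes Jun, Dusp1, Klf4 and Fosb, with 214, 209.6 and 121 CPM, against 78.5, 72.4 and 65.2 CPM in the other S1/S2-like subcluster. Sox9 was higher in both Aoah-/- libraries in each of these subclusters, at 5.61, 8.55 and 2.19 CPM in the former and 5.05, 3.95 and 0.252 CPM in the latter. The former was 1217, 957 and 2143 cells and the latter 1357, 1118 and 648.

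In S3-like cells (683, 680 and 1165 cells), 5 of the 9 members with enough UMIs were past 1.5-fold, beside 13.7% of all genes. Sox9 stood at 7.38, 4.57 and 0.726 CPM from 88, 57 and 15 UMIs, a log2 ratio of 3.04 (SD 0.49). Havcr1 stood at 4.78, 2.005 and 1.45 CPM, Lcn2 at 2.51, 4.33 and 1.02 CPM and Krt19 at 3.27, 1.20 and 1.06 CPM, all above the WT level in both Aoah-/- libraries, but with Aoah-/- mouse 3 alone the log2 ratios of Havcr1 and Krt19 were 0.47 and 0.18, within 1.5-fold. Cryab was lower, at 21.3, 20.05 and 48.00 CPM and a log2 ratio of -1.22. The difference rested on the same subcluster, of 17, 21 and 53 cells, led by the steroid hydroxylase gene Cyp7b1, in which Cryab reached 782, 372 and 1030 CPM. Without it Cryab was at 13.05, 9.98 and 14.1 CPM and its log2 ratio was -0.29, within 1.5-fold, while that of Sox9 was 3.02. The Havcr1 ratio was 2.39, from 57, 24 and 13 UMIs. In Aoah-/- mouse 2, S1/S2-like cells had 25 Havcr1 UMIs and PT-like cells without a segment name 17, each fewer than its richest cell alone. That cell was thus S3-like, and the S3-like Havcr1 level of this mouse rests in part on it.

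**Figure D3:**
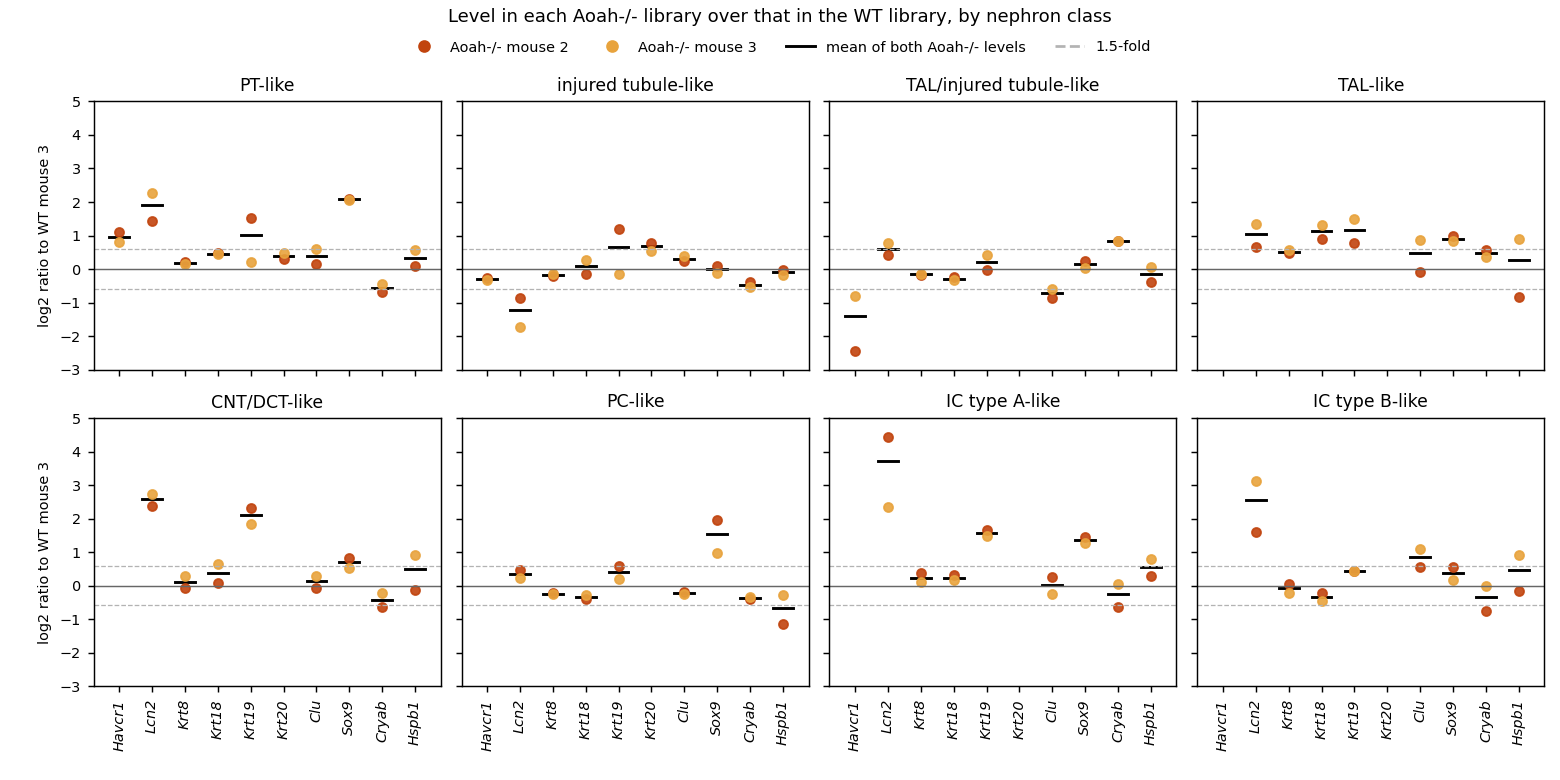
Log2 ratio of each Aoah-/- library to the WT library for each member in the 8 nephron classes. Points are the 2 Aoah-/- libraries, black lines the ratio of their mean to the WT library, dashed lines 1.5-fold, and members with fewer than 4 UMIs in a library are not drawn. Sox9 lies above 0 in both libraries in 7 of the 8 classes, and Clu is below the dashed line in TAL/injured tubule-like cells.

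In injured tubule-like cells the members together stood at 3689, 3517 and 4009 CPM. Both Aoah-/- libraries were above the WT library for 2 of the 10 and below it for 5. Over all genes reaching 20 CPM in this class, 29.0% were above and 46.6% below the WT library in both Aoah-/- libraries. The member counts were close to these shares, so they do not set the members apart from other genes. Of the 10 members, Krt20 (above) and Lcn2 (below) were past 1.5-fold, beside 13.8% of all genes. Krt20 stood at 41.7, 35.6 and 24.2 CPM from 79, 116 and 33 UMIs, a log2 ratio of 0.67 (SD 0.16), which was 0.56 and within 1.5-fold without Aoah-/- mouse 2, and -0.27 when only cells with at least 500 genes were clustered. Without cells holding immune marker UMIs, 0 Krt20 UMIs were left in either injured class. Havcr1 fell in the same step as well, to 7, 18 and 36 UMIs over both injured classes. Sox9 stood at 369, 317 and 344 CPM, with the WT library between the Aoah-/- libraries. Krt8 stood at 782, 813 and 893 CPM, Hspb1 at 1118, 1005 and 1135 CPM and Cryab at 658, 591 and 862 CPM, with log2 ratios of -0.16, -0.10 and -0.47. For Cryab the direction was not stable, since its ratio kept its sign under 2 of 8 alternatives and ranged from -0.87 to 0.88. In 5 of these alternatives no TAL/injured tubule-like class was named, so that the injured tubule-like class was a wider one.

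The values of Havcr1 and Lcn2 in injured tubule-like cells rested on few cells. Havcr1 was at 150.1, 143 and 181 CPM, a log2 ratio of -0.30, but without the 5 richest cells of each library it was at 90.9, 82.5 and 58.7 CPM and the ratio was 0.56. Lcn2 was at 68.2, 37.4 and 123 CPM, a log2 ratio of -1.22, and 5 WT cells held 96.4% of its WT UMIs. Without the richest cells it stood at 22.2, 19.3 and 4.40 CPM and the log2 ratio was 2.24, with the opposite sign. The 5 cells were a larger part of the 104 WT cells than of the 169 and 330 Aoah-/- cells. The ratio of every other member with a value rose as well in this setting. Neither the direction of Havcr1 nor that of Lcn2 can be read in this class. The immune gene sum here was 2037, 1558 and 1637 CPM, mostly Cd74.

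In TAL/injured tubule-like cells 4 of the 9 members with enough UMIs were past 1.5-fold, 2 above and 2 below, beside 12.9% of all genes. The sum of the 7 immune genes was 315, 299 and 154 CPM, with 5 of 5 genes at 20 CPM or more above the WT level in both Aoah-/- libraries, and its part in these differences was not tested except as given for Lcn2. Clu was lower in both Aoah-/- libraries, at 3642, 4332 and 6555 CPM, a log2 ratio of -0.72 (SD 0.18), and 64.3, 65.9 and 79.5% of the cells had a Clu UMI at equal depth. Cryab was higher, at 500, 499 and 277 CPM, a log2 ratio of 0.85 with both Aoah-/- libraries at the same level, and in 21.3, 25.03 and 15.6% of cells. With only cells of at least 500 genes clustered, the Cryab ratio was 0.53. Lcn2 was higher, at 1993, 2572 and 1498 CPM, a log2 ratio of 0.61 (SD 0.26) that was 0.41 without Aoah-/- mouse 3 and 0.51 without cells holding immune marker UMIs, both within 1.5-fold. Havcr1 was lower, at 3.31, 10.3 and 17.9 CPM from 21, 76 and 84 UMIs, a log2 ratio of -1.39 with the Aoah-/- libraries far apart (SD 1.16), and the 5 richest cells of each library held 42.9% to 64.5% of its UMIs. Krt8, Krt18, Krt19, Sox9 and Hspb1 were within 1.5-fold, with log2 ratios of -0.15, -0.28, 0.21, 0.15 and -0.14. In this class Lcn2 and Clu, the pair of secreted products, thus stood on opposite sides of the WT level.

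Because the border between the 2 injured classes moved with the settings of the clustering, both were also summed (776, 1121 and 476 cells), a comparison added after the data were seen. Of the 10 members 2 were past 1.5-fold, Krt20 above and Clu below, beside 12.4% of all genes. Clu stood at 2898, 3144 and 5159.9 CPM, a log2 ratio of -0.77 (SD 0.08), and between -0.96 and -0.68 in 7 other clusterings or cell filters. Lcn2 stood at 1551, 1795 and 1189 CPM, a log2 ratio of 0.49 (SD 0.15) with a range of 0.36 to 0.59. Cryab stood at 536, 527 and 409 CPM, 0.38 on the log2 scale with a range of 0.09 to 0.82. Krt8 (-0.19) and Krt18 (-0.34) were lower in both Aoah-/- libraries under all 8 settings. Havcr1 stood at 37.05, 51.1 and 54.4 CPM and Sox9 at 258, 232 and 224 CPM, with log2 ratios of -0.31 (range -1.32 to -0.14) and 0.13 (range 0.005 to 0.22). Krt20, at 11.8, 11.2 and 5.44 CPM, had a log2 ratio of 1.08 and a range of 0.29 to 1.18 over the 6 settings with enough UMIs. In the setting left out, without cells holding immune marker UMIs, 194, 265 and 224 cells remained and had 0 Krt20 UMIs. Before that step Krt20 had 97, 119 and 33 UMIs. The loss was not particular to Krt20, since Havcr1 fell from 305, 543 and 330 to 7, 18 and 36 UMIs. The Havcr1 ratio of -1.32 comes from this setting. Lcn2 stayed at 1615, 1807 and 1204 CPM.

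Among the other nephron classes, Sox9, Lcn2 and Krt19 were above the WT level in both Aoah-/- libraries in each of the 5, although in PC-like cells Krt19 kept this direction under 1 of 7 alternatives, Lcn2 under 4 of 7 and Sox9 under 5 of 6. For the same genes lymphocyte-like cells, taken as background, were also above the WT level in both Aoah-/- libraries. Sox9 was higher in both Aoah-/- libraries in every nephron class except the injured tubule-like, at 38.02, 34.5 and 19.3 CPM in TAL-like, 103, 83.7 and 57.6 CPM in CNT/DCT-like and 67.9, 59.4 and 24.5 CPM in IC type A-like cells. The log2 ratios were 0.91, 0.69 and 1.38, and that of CNT/DCT-like cells was 0.54 without Aoah-/- mouse 2. In TAL-like cells 5 WT cells held 55.4% of the WT Sox9 UMIs, and in PC-like cells Sox9 had only 30, 18 and 7 UMIs and was within 1.5-fold under 5 of 8 alternatives. All kept cells together gave 27.5, 31.2 and 16.6 CPM of Sox9, a log2 ratio of 0.82, which also carries the larger shares of injured classes in the Aoah-/- mice.

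TAL-like cells had 4 of 8 members past 1.5-fold, all above, beside 17.6% of all genes. Lcn2 stood at 89.01, 144 and 56.8 CPM there, Krt18 at 37.6, 49.9 and 19.96 CPM and Krt19 at 8.24, 13.6 and 4.82 CPM, with log2 ratios of 1.03, 1.13 and 1.18. With a mitochondrial limit of 20%, the ratios of Lcn2 and Krt18 were -0.10 and 0.42, within 1.5-fold. Krt8 stood at 168, 182 and 122 CPM, a log2 ratio of 0.52. The sum of the 7 immune genes in TAL-like cells was 611, 1232 and 191 CPM, with all 7 genes above the WT level in both Aoah-/- libraries, and its part in these differences was not tested.

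CNT/DCT-like cells had 3 of 8 members past the fold (Lcn2, Krt19 and Sox9 above) beside 11.8% of all genes, and IC type A-like cells 3 of 8 (the same genes) beside 11.7%. Lcn2 in IC type A-like cells was at 544, 129.6 and 25.3 CPM, but 1 cell of Aoah-/- mouse 2 held 770 of its 1322 UMIs, and without the 5 richest cells the levels were 66.6, 17.9 and 9.89 CPM, a log2 ratio of 2.10. In CNT/DCT-like cells Lcn2 had 73, 123 and 11 UMIs, of which 5 cells held 75.3% in Aoah-/- mouse 2. Krt19 stood at 6.45, 4.63 and 1.29 CPM there, from 32, 30 and 5 UMIs, against 6.03, 3.58 and 3.03 CPM in lymphocyte-like cells. IC type B-like cells had 2 of 8 past the fold, Lcn2 and Clu above, beside 12.3% of all genes. Clu stood at 607, 880.2 and 413 CPM in them and was within 1.5-fold without Aoah-/- mouse 3 (0.56). Lcn2 stood at 51.2, 146 and 16.8 CPM in them, but at 5.33, 103 and 2.62 CPM without the 5 richest cells. Aoah-/- mouse 3 was shallower in 2 of these classes. The median was 18203, 3958 and 18671.5 UMIs in IC type B-like and 9469.5, 3882 and 9078 UMIs in PC-like cells. PC-like cells had 2 of 8, Sox9 above and Hspb1 below, beside 12.2% of all genes. Hspb1 stood at 22.4, 40.6 and 49.4 CPM and its log2 ratio of -0.65 was -0.28 without Aoah-/- mouse 2. The immune gene sum was higher in both Aoah-/- libraries in CNT/DCT-like (295, 486 and 198 CPM), PC-like (334, 752 and 106 CPM) and IC type A-like cells (646, 678 and 182 CPM).

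In urothelial-like cells 6 of 9 members were past the fold, Lcn2 above and 5 below, beside 16% of all genes. Lcn2 stood at 29.2, 124 and 26.6 CPM, so its call rested on Aoah-/- mouse 3. The median mitochondrial share of the class was 5.97%, 15.8% and 6.41%, and its immune gene sum 279, 998 and 410 CPM. Krt8 stood at 832, 760.1 and 1292 CPM and Krt18 at 1209, 1080.3 and 1769 CPM, with log2 ratios of -0.70 and -0.63, both lower in each Aoah-/- library. Sox9 stood at 10.4, 13.3 and 67.00 CPM and Hspb1 at 405, 366 and 591 CPM. Cryab stood at 7.57, 49.8 and 536 CPM, and 5 WT cells held 76.6% of its WT UMIs. The urothelium lines the renal pelvis, and how much of it entered each digest cannot be told apart from genotype.

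Many cells of the injured classes had UMIs of several members. Most members were also rarer by themselves in PT-like cells, and the share that this alone would give was not formed. At equal depth 26.3%, 24.2% and 25.96% of injured tubule-like cells and 54.1%, 54.4% and 57.7% of TAL/injured tubule-like cells had UMIs of 3 or more members, against 0.0489%, 0.230% and 0.0662% of PT-like cells (3, 11 and 5 cells). No member was detected in 86.96%, 84.6% and 88.8% of PT-like cells. In injured tubule-like cells the summed level of 31 other injury genes was 12500, 12217.4 and 11000 CPM in cells with no member and 36705, 27713 and 31778 CPM in cells with 3 or more. The summed level of 15 mature PT genes was 4781, 5058 and 4571 CPM in the former and 2659, 2488 and 3333 CPM in the latter. Over the whole class the 31 other injury genes summed to 28745, 21875.5 and 25330 CPM. Most of this was Spp1, also used to name the class, at 19069.5, 12971 and 15525 CPM. Cells with more members also had more UMIs before thinning, with medians of 6920.5, 4749 and 7486 against 13735, 10736 and 12657, and a lower mitochondrial share, with medians of 18.2%, 16.8% and 13.3% against 5.49%, 5.79% and 6.84%. The part of cell quality in this relation was not tested.

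**Figure D4:**
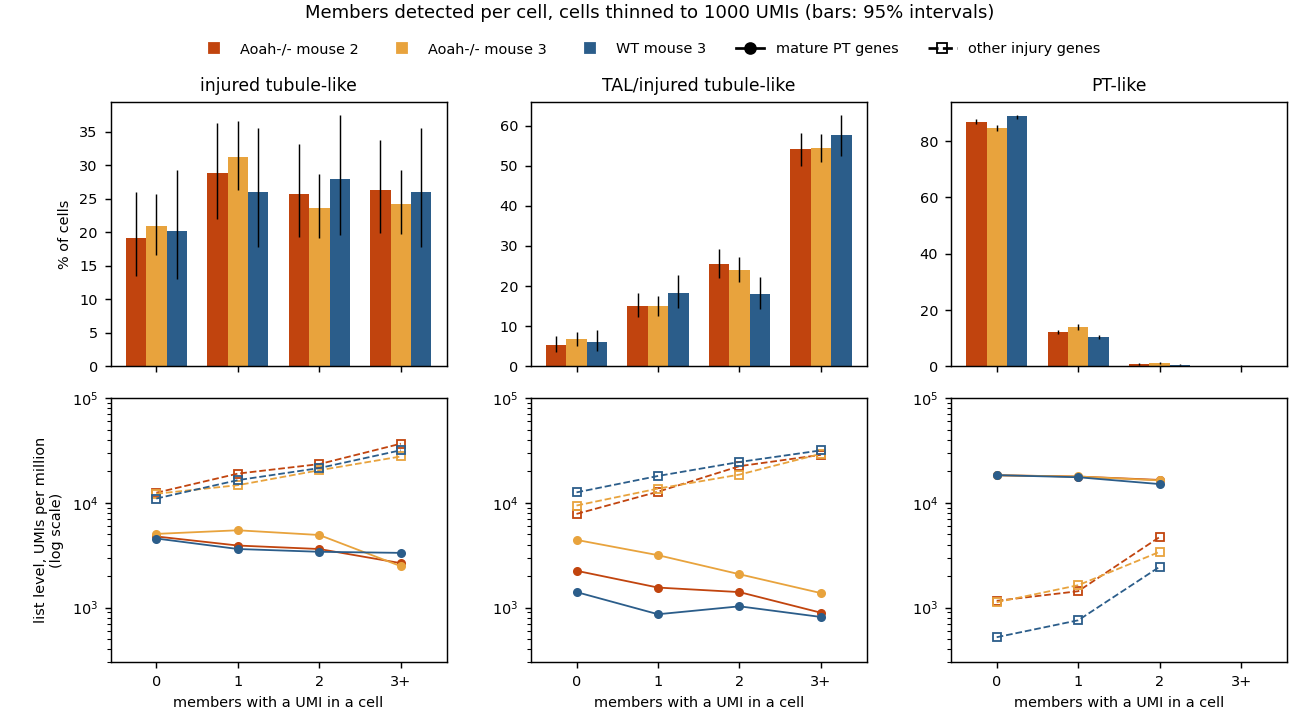
Upper panels show the percent of cells with 0, 1, 2 or at least 3 of the 10 members detected after thinning to 1000 UMIs, in injured tubule-like, TAL/injured tubule-like and PT-like cells of each library. Lower panels show the summed level (CPM) of mature PT genes and of other injury genes in the same cells, for bins of at least 20 cells. In injured tubule-like cells the other injury genes, over the whole class mostly Spp1, go from 11000 to 12500 CPM with no member to 27713 to 36705 CPM with 3 or more.

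Keratins 8 and 18 were found together. Of TAL/injured tubule-like cells with a Krt18 UMI, 66.3% (136 of 205), 67.4% (174 of 258) and 74.4% (96 of 129) also had a Krt8 UMI, against 43.1%, 43.3% and 41.8% of cells without one. The injured tubule-like class had the same order with few cells, 75%, 63.2% and 62.5% against 35.1%, 32.2% and 32.3%. Clu was found in 74.0%, 77.5% and 89.3% of TAL/injured tubule-like cells with an Lcn2 UMI and in 52.3%, 52.3% and 71.2% of those without. In each mouse, cells with the first gene of either pair held the second more often than cells without it.

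Across the 73 sums of a class in a library with at least 50 cells, likeness between members is described by Pearson's r of log2(CPM + 10). The sums of 1 library share its depth and any free RNA, and those of 1 class share their cell type, so r is a description. Krt8 and Krt18 had an r of 0.90, Krt18 and Krt19 of 0.81, Krt8 and Cryab of 0.79, and Cryab and Hspb1 of 0.64. Havcr1 had an r of 0.53 with Sox9, 0.47 with Krt20, 0.36 with Krt8, 0.20 with Lcn2 and 0.03 with Krt19.

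**Figure D5:**
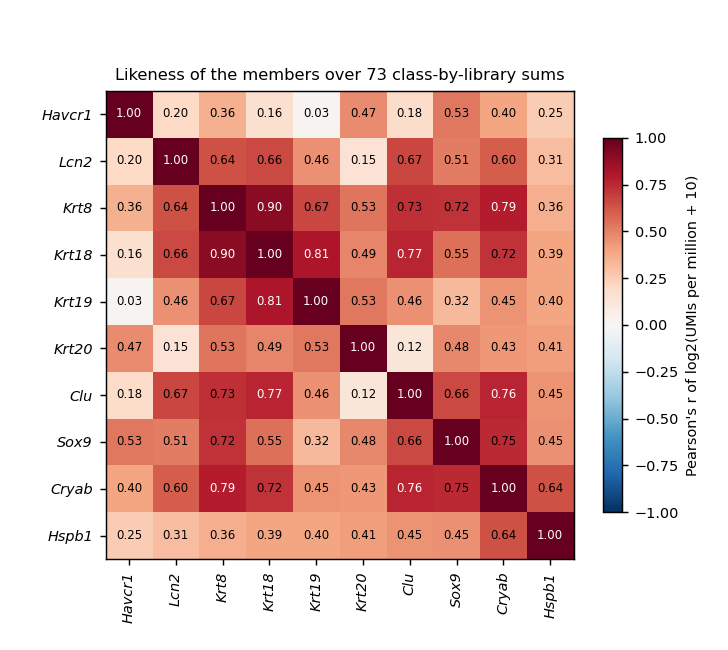
Pearson's r of log2(CPM + 10) between each pair of members over 73 class-by-library sums of at least 50 cells. Krt8 and Krt18 are the most alike pair with an r of 0.90, and Havcr1 with Krt19 has an r of 0.03.

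Among 8039 genes that reached 50 CPM in a sum, those most like each member were named. Krt8 was most like Tuft1 (0.90), Krt18 (0.90) and the desmosomal cadherin gene Dsg2 (0.89), and Krt18 most like Krt7 (0.92), the claudin gene Cldn4 (0.92) and the desmoplakin gene Dsp (0.91). Krt19 was most like Klf5 (0.90), Oit1 (0.88) and Mpzl2 (0.86), and Krt20 like Igfbp2 (0.86), 2200002D01Rik (0.83) and Ptgr1 (0.82). Havcr1 was most like D630011A20Rik (0.82), the retinol transporter gene Stra6 (0.82) and Ubd (0.78). Lcn2 was most like Spink12, Il1f6 and Cldn3, each with an r of 0.72, and Clu like Frk (0.87), Cldn3 (0.87) and Cadps2 (0.86). Sox9 was most like Dcdc2a (0.85), itself used to name the injured tubule-like class, Ctxn1 (0.85) and Aoc1 (0.83). Cryab was most like Cyr61 (0.89), Syne2 (0.84) and Ift74 (0.84), and Hspb1 like Rab13, Plscr3 and Efnb1, each with an r of 0.90.

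Other genes of the same programs were taken from lists and compared in PT-like cells where they reached 20 CPM in a group. Of 31 other injury and dedifferentiation genes 7 did, of which 6 were higher in both Aoah-/- libraries, 5 of them past 1.5-fold, and 1 was lower, with a median log2 ratio of 1.08. Over all genes at that level 32.4% were higher and 52.9% lower in both Aoah-/- libraries, with a median of -0.06. The 31 genes summed to 1332, 1226 and 570 CPM in PT-like and 1316, 1096 and 890 CPM in lymphocyte-like cells. The PT-like sum was thus near this background in Aoah-/- mouse 2, somewhat above it in mouse 3 and below it in the WT mouse. The lymphocyte-like sum was also higher in both Aoah-/- libraries. The osteopontin gene Spp1 stood at 1008, 888 and 326 CPM, the stem cell antigen gene Prom1 at 68.6, 60.8 and 30.6 CPM, the chemokine gene Cxcl1 at 27.4, 22.5 and 10.9 CPM and the complement gene C3 at 22.03, 22.2 and 9.82 CPM. In injured tubule-like cells 29 of the 31 could be compared, of which 9 were higher and 12 lower in both Aoah-/- libraries, beside 29.0% higher and 46.6% lower of all genes at that level. In TAL/injured tubule-like cells it was 11 higher and 10 lower of 26, beside 27.0% and 47.1%.

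Of 14 other chaperone genes 7 reached 20 CPM in PT-like cells, of which 0 were higher and 6 lower in both Aoah-/- libraries, with a median log2 ratio of -0.33, while 52.9% of all genes were lower as well. Hsph1 was at 54.4, 47.8 and 80.8 CPM, Hspa8 at 1248, 888 and 1553 CPM, Dnajb1 at 29.3, 25.4 and 35.5 CPM and Hsp90aa1 at 549, 628 and 741 CPM. In CNT/DCT-like cells 9 of 9 were lower, beside 36.3% of all genes, and in TAL/injured tubule-like cells 8 of 10, beside 47.1%, with 0 higher, whereas Cryab was higher there. Of 15 mature PT genes 8 were higher and 5 lower in PT-like cells. The gluconeogenic enzyme gene Pck1 was at 2253, 1661 and 1016 CPM, the creatine synthesis gene Gatm at 1410, 1306 and 852 CPM, the lactate transporter gene Slc5a12 at 221, 231 and 146 CPM and the S3 transporter gene Slc7a13 at 253, 350.3 and 473 CPM. Of 12 partners of keratins only Krt10, at 17.7, 18.1 and 24.6 CPM, and the plakoglobin gene Jup, at 28.2, 29.3 and 26.04 CPM, reached 20 CPM.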

How the data were processed

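Kidney cells of 3 FA-treated mice were sequenced with the 10x Genomics 3′ v2 kit, 1 library per mouse. What the authors deposited per mouse is a table of whole-number UMI counts, not normalized, for 27998 genes in the barcodes their software took for cells. The labels name Cell Ranger 3.1.0, STAR, Seurat 4.2.0 and mm10, while the matrix header names Cell Ranger 6.1.2. Barcodes went down to 500 UMIs in mouse 2 (Aoah-/-) and in the WT library but only to 1672 in mouse 3 (Aoah-/-), so cell calling was not alike. In the order mouse 2, mouse 3 and WT, kept cells had a median of 3357, 3678 and 3859 UMIs.

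Barcodes with at least 200 genes and at most 50% of UMIs from 13 mitochondrial genes were kept. All libraries entered one clustering with scanpy 1.11.5 (2000 variable genes without the 10 members and Aoah, 50 principal components, 15 neighbours, Leiden with igraph 0.11.9 at resolution 1), and PT-like cells again with 30 components at resolution 0.5. This gave 38 clusters. Levels of genes in a cluster (CPM + 10) were divided by the median over 34 clusters of at least 50 cells, and genes in under 10% of its cells were not used. A name needed a mean log2 fold of the 5 best markers of at least 2 (0.5 for PT segments), 3 markers at 2-fold, and no other class with more markers among the 10 leading genes. Clusters of low UMI content without a leading marker, or with strong PT RNA, stayed unnamed, and classes within 0.6 share a name. This scoring was set after clusters and leading genes had been seen under a first version. Doublets were kept. Scrublet called 2.55%, 0% and 1.10% of cells, and thus did not work in Aoah-/- mouse 3.

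UMIs were summed per class and library and divided by the class total (CPM), with exact Poisson 95% intervals (scipy 1.17.1). Shares of cells used cells thinned to 1000 UMIs (numpy 2.4.6), with exact Clopper-Pearson 95% intervals and T and B lymphocyte-like cells as background. The log2 ratio compares the mean of both Aoah-/- libraries with the WT library. A gene was called where both lay on one side and the ratio passed 1.5-fold, and no ratio was formed with fewer than 4 UMIs in a library. The steps were tested on simulated data. All members are named. Beside them, the text names the 3 genes most correlated with each member, and from each list up to 4 genes with the largest ratio in PT-like cells among those at 20 CPM or more with both Aoah-/- libraries on one side. Members, markers and lists were chosen with earlier results of these data known. Alternatives changed filters, clustering, thinning depth, the fold and the libraries used. Positions come from GENCODE M21 and promoters from RefSeq, both on GRCm38. Figures were drawn with matplotlib 3.10.9.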

Additional observations from a re-analysis of the deposited data

How the results depend on the processing

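The median log2 ratio over 69 member and class pairs was 0.36. It was 0.18 with a mitochondrial limit of 20%, 0.24 with at least 500 genes per cell, 0.44 without the 10% of cells with the highest Scrublet scores, 0.30 at resolution 2, 0.21 with 30 principal components, 0.30 as a mean over cells and 0.29 without cells holding immune marker UMIs. It was 0.45 without the 5 richest cells, an alternative chosen after seeing the data, like the summed injured classes and the removal of the Cyp7b1-led subcluster, and 0.23 to 0.29 with 1 Aoah-/- mouse left out. The 5 richest cells are a larger part of a class with fewer cells. The 4 members called in PT-like cells were 7 without the highest Scrublet scores, 9 when a smaller fold was required and 3 at 2-fold, and 4 or 5 with 1 Aoah-/- mouse left out. The share of all genes called, 18.3% in the main setting, is not given for these settings and also depends on the fold. These counts therefore describe the members only. The summed PT-like log2 ratio of 0.20 was 0.42 with the 20% limit, 0.56 without the highest Scrublet scores, 0.35 as a mean over cells and 0.17 to 0.22 with 1 Aoah-/- mouse left out. Without the highest Scrublet scores the PT-like class held 7892, 6527 and 8866 cells, against 8040, 4781 and 9335 in the main setting. Cells of other clusters thus joined it in Aoah-/- mouse 3, and the PT-like values of this setting describe another set of cells. Both thinned Aoah-/- shares were above the WT share for 7 members, for 6 to 8 at other depths or draws, and for 7 to 9 with 1 Aoah-/- mouse left out. No count over all genes stands beside these.

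The log2 ratio of Lcn2 in injured tubule-like cells changed from -1.22 to 0.45 with the 20% limit, 0.55 with a common lowest UMI total, 0.45 without the highest Scrublet scores, 0.59 at resolution 2, 0.65 with 30 components and 2.24 without the 5 richest cells. In the first 5 of these no TAL/injured tubule-like class was named, and the injured class held mostly its cells. Among pairs past 1.5-fold, signs also changed for Lcn2 in TAL-like cells (-0.10 with the 20% limit), Krt20 in injured tubule-like cells (-0.27 with at least 500 genes), Sox9 in PC-like cells (-0.013 without the highest Scrublet scores) and Hspb1 in PC-like cells (0.41 without immune marker UMIs). Among pairs within 1.5-fold or with the Aoah-/- libraries on both sides of the WT library, signs turned most often in injured tubule-like cells, where Krt18 kept its sign under 0 of 7 alternatives and Clu, Sox9 and Cryab under 2 of 8 each, and for Krt19 in PC-like cells (1 of 7, down to -1.74). In the 5 alternatives without a TAL/injured tubule-like class, the injured tubule-like values describe the wider class, as for Lcn2, and not the same cells. The part of this in the turns was not tested, nor was the cause for Krt19 in PC-like cells. Of 24 member and class pairs past 1.5-fold, 12 stayed past it in one direction under every alternative that gave a value, among them Havcr1, Lcn2 and Sox9 in PT-like cells. Altogether, 460 of 719 values for single members moved by less than the SD between the Aoah-/- libraries, and the others by more. The 460 include 69 values without Aoah-/- mouse 2 and 69 without mouse 3, which all moved by less. Leaving out 1 of 2 libraries nearly always moves a ratio by less than their SD, so these values do not show stability. In all, 90 of the 719 had another sign, 10 of them for a pair past 1.5-fold. No paired analysis was possible because the genotypes share only replicate number 3.

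Depth limits members with few UMIs: Krt20 outside injured tubule-like and urothelial-like cells, and Havcr1 in distal classes. With 1 WT mouse no spread between WT mice is known, all intervals cover counting error only, and fewer cells of a kind within a class cannot be told apart from less RNA per cell.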

Other observations

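Several members had their highest or next highest level outside the nephron. Hspb1 stood at 1110, 1708 and 1476 CPM in endothelial-like cells (Aoah-/- mouse 2, mouse 3 and then the WT mouse), and 49.5%, 59.8% and 58.7% of these cells had an Hspb1 UMI at equal depth. An unnamed cluster led by endothelial genes was close, at 1094, 1916 and 1975 CPM. Lcn2, which neutrophils also store in granules, stood at 478, 417 and 499.7 CPM in neutrophil-like cells, less than in TAL/injured tubule-like cells of the same libraries. Neutrophil-like cells were 3.86%, 3.22% and 1.15% of kept cells. Krt19 reached 983 CPM in fibroblast/mesothelial-like cells of the WT mouse, in 62.7% of them, and this class held 18.7% of its WT Krt19 UMIs. Of its 151 cells 150 came from the WT mouse, so no comparison between genotypes can be made there, and the same cells had Clu at 1274 CPM and Hspb1 at 1360 CPM.

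Havcr1 was also found in 86, 140 and 69 dendritic/monocyte-like cells with a high level of the plasmacytoid dendritic cell gene Siglech (1887, 1754 and 1931 CPM), at 42.6, 55.3 and 67.8 CPM from 18, 43 and 25 UMIs. At equal depth 7.41%, 3.57% and 9.23% of them had a Havcr1 UMI, a range that overlapped that of injured tubule-like cells. A cluster led by the division genes Mki67 and Top2a, which stayed unnamed (84, 113 and 123 cells), had Havcr1 at 23.6, 30.8 and 19.7 CPM, but without thinning only 2.38%, 6.19% and 1.63% of its cells had a Havcr1 UMI, so that a few cells carried this level.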
